A study of Homo sapiens with 28 samples.

Results

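H3K27ac peak lists of SW872 cells carrying TAZ-CAMTA1 were compared with those of SW872 cells carrying YAP-TFE3, the fusion proteins of epithelioid hemangioendothelioma. The 4 lists were chosen by the names of the peaks inside them, where TC stands for TAZ-CAMTA1 and YT for YAP-TFE3 in the wording of the study's methods. They are 4 of the 14 lists of the series, which holds 7 constructs in pairs, and they hold 132283 of its 654580 peaks. The labels given to GEO name other constructs. The lists carrying TC are labelled CAMTA1, the full-length partner, and those carrying YT are labelled TFE3. The lists labelled TAZ_CAMTA1 and YAP_TFE3 carry TAZ4SA and YAP5SA in their peak names. The lists are called TC and YT here, and which naming is right cannot be told from them, so a difference below is one between the 2 pairs of lists and is tied to a construct only as far as the peak names are right.

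SW872 is an established human liposarcoma line. All groups, the controls included, were SW872 cells stably transduced with a retroviral vector and drug-selected, and the constructs carried a Flag tag and were expressed from the vector on top of the cells' own YAP and TAZ. Libraries were prepared as biological duplicates. The ChIP methods describe growth of all constructs to near confluence, while the protocol in the labels makes an exception of CAMTA1, collected at lower density, so the density of the lists labelled CAMTA1 is not settled. The antibody is given as H3K27ac, while the labels' protocol text describes a Flag immunoprecipitation.

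Acetylation of lysine 27 on histone H3 marks active promoters and enhancers. YAP and TAZ are coactivators that the Hippo kinases keep out of the nucleus and that reach DNA through TEAD transcription factors. In the fusions the N-terminal part of TAZ or YAP, with its TEAD-binding domain, is joined to the C-terminal part of CAMTA1, a calmodulin-binding transcription activator, or of TFE3, a transcription factor that regulates lysosomal genes. The comparison asks whether the fusions leave the same or different sets of acetylated regions in the same cell line.

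The lists differed widely in length. TC list 1 held 47974 peaks, TC list 2 held 31280, YT list 1 held 5721 and YT list 2 held 47308. Each list was therefore cut to its 5721 peaks with the highest −log10 p, the number in the shortest list, and these are the peaks called kept below. The last kept peak had a −log10 p of 30.95 in TC list 1, 16.78 in TC list 2, 4.24 in YT list 1 and 26.90 in YT list 2. In the 3 longer lists the first peak left out had the same value as the last one kept. YT list 1 was thus read to a far weaker peak than the others, and the overlaps and counts that it decides are given with and without it. Read totals were not used here, so the depth of the libraries is unknown. Gene names, start sites and sequences of the regions were not analysed here, so the cell type was not checked against its markers and regions are named by their coordinates in GRCh37.

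The kept peaks of YT list 1 were narrow and weak. Their median width was 486 bp, against 2821 bp in TC list 1, 1752 bp in TC list 2 and 2590 bp in YT list 2. They covered 3.70 Mb, against 21.6, 12.5 and 19.1 Mb in the same order. The median fold enrichment, the height of a peak's summit over its local background, was 4.56 in YT list 1, 12.3 in TC list 1, 9.94 in TC list 2 and 13.2 in YT list 2. Of the kept peaks, 42 in YT list 1 lay outside chromosomes 1 to 22 and X, against 5 to 7 in the others. YT list 2 lay between or near the TC lists on each of these values, and the pairs overlapped on all of them. The mean log2 difference, TC minus YT, was 0.99 for median width, 0.97 for Mb covered and 0.51 for median fold. In exact two-sided permutation tests over 6 splits the p was 0.667, 0.667 and 1, where 0.333 is the smallest p that 2 lists against 2 allow. Without YT list 1 the differences turned to −0.22, −0.22 and −0.25.

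Which lists overlapped most depended on how the lengths they cover were treated. Overlap was measured by the Jaccard index, the length covered in both lists over the length covered in at least 1 of them. It was 0.448 for the TC pair and 0.155 for the YT pair. Between constructs it was 0.553 for TC list 1 with YT list 2, 0.460 for TC list 2 with YT list 2, 0.214 for TC list 2 with YT list 1 and 0.137 for TC list 1 with YT list 1. The index cannot exceed the ratio of the lengths that 2 lists cover. That limit was 0.193 for the YT pair, 0.171 and 0.296 for YT list 1 with TC lists 1 and 2, and 0.577 for the TC pair, against 0.885 and 0.652 for YT list 2 with TC lists 1 and 2. The YT pair reached 80.4% of its limit and the TC pair 77.7%. The pairs between constructs reached 62.4% for TC list 1 with YT list 2, 70.6% for TC list 2 with YT list 2, 72.4% for TC list 2 with YT list 1 and 80.2% for TC list 1 with YT list 1. TC list 1 with YT list 2 thus had the highest index of the 6 pairs and the lowest share of its limit. The mean within minus the mean between was −0.039, and the p was 0.667 in an exact one-sided permutation test over 3 pairings, of which the smallest possible is 0.333. Left without YT list 1, the TC pair minus the mean of its overlaps with YT list 2 gave −0.058. Without YT list 2 the same difference was 0.272, with the TC pair higher. With each peak replaced by its summit and 500 bp on either side, which makes the widths equal, the difference over all 4 lists was 0.0083, and with each index taken as a share of its limit it was 0.0763, so its sign turned under both (exact one-sided permutation p of 0.333, the smallest possible).

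Against the rest of the series, the index of the TC pair fell in the range of other pairs of replicates, and the YT pair could not reach that range. The 5 other pairs carrying a common construct had indices from 0.330 to 0.618, with a mean of 0.520 ± 0.114 (SD, n = 5), and reached 60.2% to 73.1% of their limits. YT list 1 had an index of 0.068 to 0.20 with the other 10 lists, which was 63.0% to 79.3% of the limits. The 80.4% that it reached with YT list 2 was thus little above its share with lists carrying other constructs. Counted by peaks, 76.1% of its peaks overlapped YT list 2, which was the highest share among the 13 lists, with 75.8% for TFE3 list 2, 75.4% for TC list 1, 69.7% for TC list 2 and 62.2% at the lowest. YT list 2 had 0.320 to 0.524 with the other 10, TC list 1 had 0.293 to 0.538 and TC list 2 had 0.234 to 0.486. By the index, TC list 1 and YT list 2 were each other's nearest of 13 lists. For both of them the next 2 were the lists carrying CAMTA1 in their peak names, which are labelled empty vector, at 0.538 and 0.530 for TC list 1 and at 0.524 and 0.514 for YT list 2. TC list 2 was nearest to a list carrying TFE3, labelled YAP5SA, at 0.486. By the share of the limit reached, TC list 1 and YT list 2 were each nearest to YT list 1, at 80.2% and 80.4%, and TC list 2 to EV list 1, at 78.7%.

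**Figure D1:**
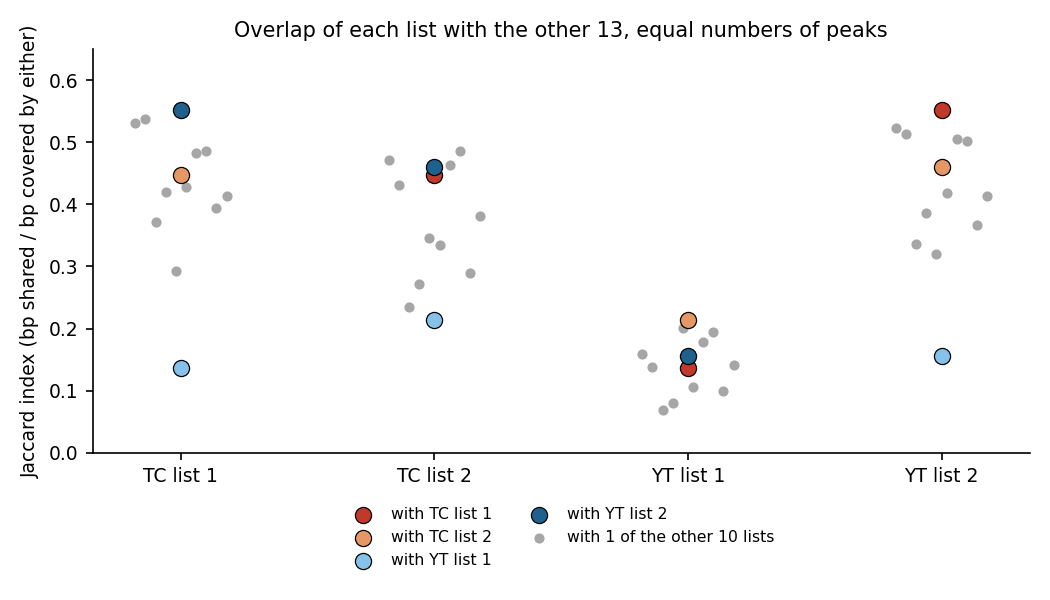
Jaccard index of each TC and YT list (x axis) with the other 13 lists, each cut to 5721 peaks. Large points are the 4 lists compared and small grey points the other 10, and YT list 1 lies at or below 0.214 with every list.

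Pairs were also compared down the ranking of peaks. Among the first 250 peaks of each list, 66.0% overlapped between the TC lists, 67.2% between TC list 1 and YT list 2, 62.0% between TC list 2 and YT list 2 and 54.8% within the YT pair. Among all 5721 these shares were 79.1%, 79.4%, 77.1% and 68.4%. YT list 1 reached 63.9% with TC list 2 and 67.4% with TC list 1, and from 500 peaks on its overlap was highest with YT list 2. With 15000 peaks per list, which YT list 1 does not hold, the share was 82.7% for the TC pair and 84.2% for TC list 1 with YT list 2. The pairs that hold YT list 1 lay below the other 3 pairs at every number of peaks read.

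**Figure D2:**
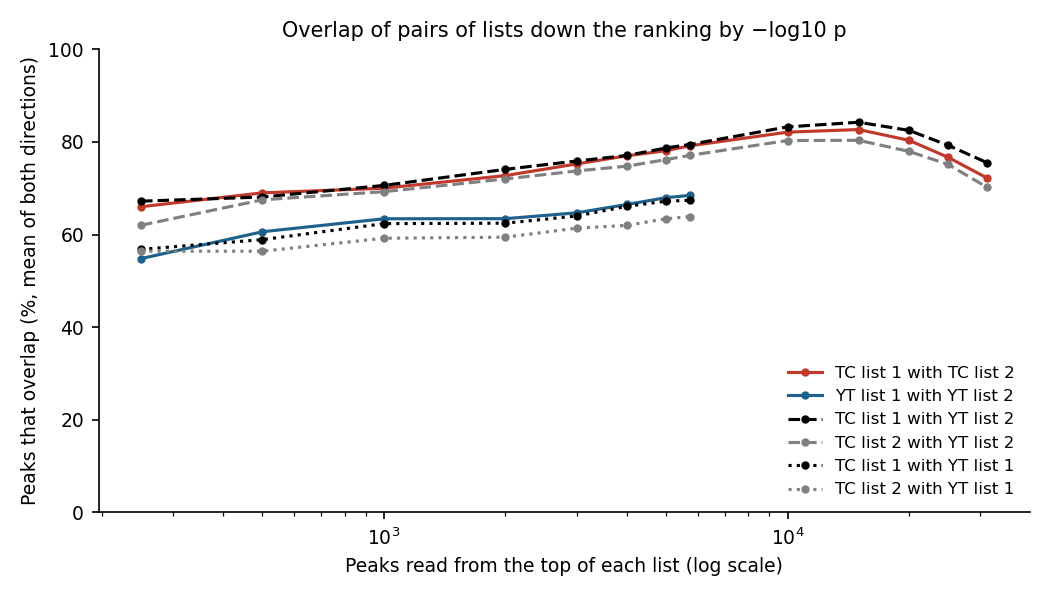
Share of peaks that overlap between 2 lists (y axis, percent, mean of both directions) against the number of peaks read from the top of each list by −log10 p (x axis, log scale). At 250 peaks the TC pair and the pairs of a TC list with YT list 2 lie between 62.0% and 67.2%, and at 5721 the 3 pairs with YT list 1 lie between 63.9% and 68.4%.

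The kept peaks of the 4 lists merged into 8305 regions. The largest class, 2741 regions or 33.0%, had a kept peak in all 4 lists. The next, 1087 regions, lacked only YT list 1, and 838 regions were in YT list 1 alone. Both TC lists but neither YT list held 372 regions, which is 4.48% of all regions. Both YT lists but neither TC list held 210, or 2.53%. Without YT list 1, 561 regions were in both TC lists and not in YT list 2, or 7.51%, and 713 were in YT list 2 and in neither TC list, or 9.55%. The YT regions then needed a peak in 1 list and the TC regions in 2, so these counts are not on 1 footing and their order is not read. The count of 210 fell to 9 of 8305 (0.108%) when at least 50% of a region had to be covered and to 11 of 62216 (0.0177%) in the full lists. In place of the 372 there were 426 (5.13%) and 1350 (2.17%) under the same settings. TC list 1 alone held 495 regions, TC list 2 alone 524 and YT list 2 alone 503. Regions in a single list numbered 2360, more than the 372 and 210 together. The regions of YT list 1 alone had a median width of 362.5 bp, against 1894 bp for those of YT list 2 alone and 3770 bp for those in all 4 lists.

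**Figure D3:**
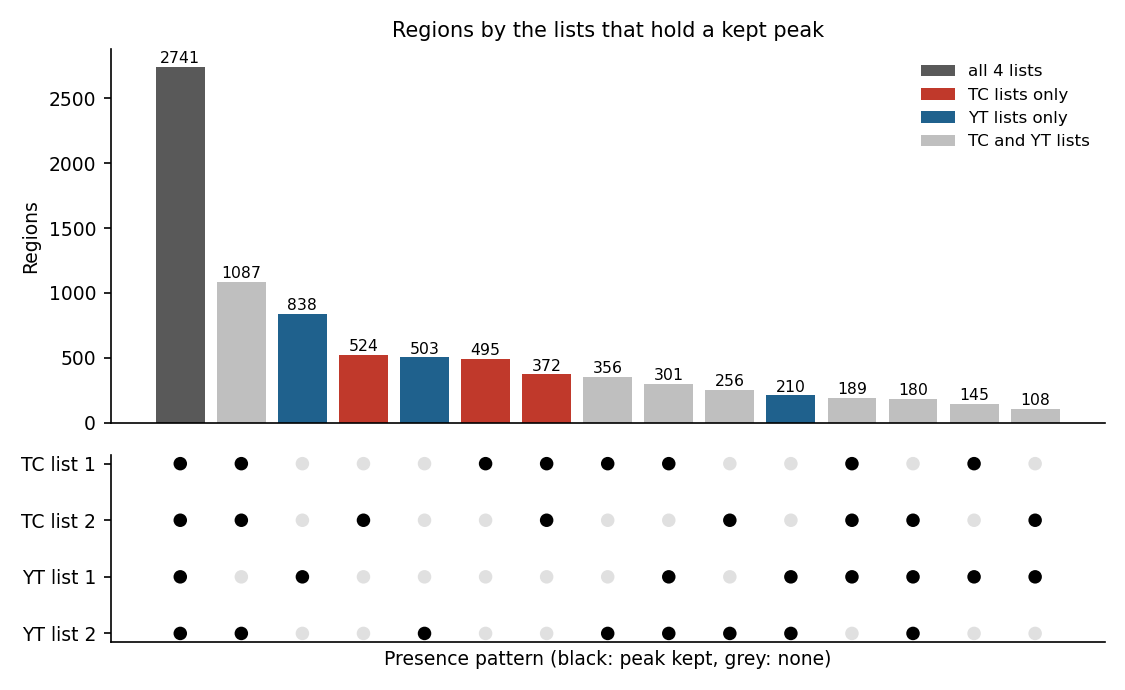
Number of regions (y axis) for each of the 15 presence patterns of kept peaks, with the lists holding a peak marked in black under each bar. Regions in all 4 lists (2741) are the largest class, and those in both TC lists and no YT list (372) or both YT lists and no TC list (210) are smaller than each class of 1 list alone.

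Read as shares, 2755 of 4405 regions common to the TC lists overlapped a region common to the YT lists, which is 62.5% (95% Wilson interval 61.1 to 64.0). In the other direction 2787 of 3477 YT regions overlapped a TC region, or 80.2% (78.8 to 81.4). All intervals here cover counting error only, not the spread between libraries. The shares depended on YT list 1, since without it 87.3% of the TC regions had a peak in YT list 2 and 68.4% of the peaks of YT list 2 lay in a TC region. The same TC regions had kept peaks in the other 10 lists at shares from 71.8% to 87.0%, and the YT regions at shares from 75.9% to 88.2%. YT list 1 held 66.8% of the TC regions, so the YT lists lay at both ends of the range of the lists carrying other constructs, 1 just above it and 1 below.

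The regions in all 4 lists had peaks throughout the series. Of the 2741, 2724 had a peak in each of the 14 full lists, and 60.3% were kept in all of the other 10. The best ranked was chr5:137908632-137912767, at rank 1 in TC list 1, 2 in TC list 2 and 1 in both YT lists. Its fold enrichment was 41.2 and 33.2 in the TC lists and 25.2 and 41.0 in the YT lists. The other 10 lists ran from 27.4 to 86.5, and YT list 1 lay below them. Next came chr5:133510103-133514145, with folds of 39.4 and 46.5 in the TC lists and 15.4 and 45.7 in the YT lists. They were followed by chr7:2392673-2396532, chr1:17229726-17233065 and chr7:5567678-5573280, all within the first 12 peaks of each list. In all of these 5 regions YT list 1 gave the lowest fold of the 4 lists. By chromosome, the share of regions found in all 4 lists ran from 23.2% on chromosome 4 to 45.0% on chromosome 20.

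Where a region was shared, the median distance between summits was short and the breadth differed. The median distance between summits over the 2741 regions was 60 bp in the TC pair, 76 bp in the YT pair and 51 bp for TC list 1 with YT list 2. The widest distance was 85 bp, for TC list 2 with YT list 1. Kept peaks covered a median of 95.6% of the region in TC list 1, 60.8% in TC list 2, 19.9% in YT list 1 and 89.2% in YT list 2. YT list 1 split the region into 2 or more peaks in 21.3% of cases, TC list 2 in 7.22%, YT list 2 in 2.66% and TC list 1 in 1.17%. Summits of YT list 1 lay within 200 bp of another list's in 68.3% to 70.9% of regions, against 75.6% to 78.8% for the other pairs.

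Regions held by both lists of 1 construct nearly always had a peak of lower rank in the longer lists of the other. All 372 TC regions without a kept YT peak had a peak further down in YT list 2, and YT list 1 has no peaks beyond the kept ones. The median rank of these peaks in YT list 2 was 7515, the best 5726, and 94.1% ranked within 11442, which is the kept number doubled. Of the 210 YT regions without a kept TC peak, 210 had a peak further down in TC list 1 and 207 in TC list 2, at median ranks of 7409 and 8124. The median fold in these regions was 7.81 in TC list 1, 6.44 in TC list 2, 4.29 in YT list 1 and 11.6 in YT list 2. By fold the TC peaks were thus higher than those of YT list 1 and lower than those of YT list 2. Of the 372 and the 210 none lacked a peak in both full lists of the other construct. Over all 8305 regions 4 lacked a peak in both full YT lists and 104 in both full TC lists. Such a peak was thus found in nearly every region and is not particular to the 372 and the 210. Within rank 11442 lay 93.8% of the 210 in TC list 1 and 83.6% in TC list 2, where ranks ran to 27747.

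The 3 best ranked of the 372 TC regions lay on different chromosomes. In chr7:27168986-27174925 the fold enrichment was 15.6 and 12.2 in the TC lists at ranks 1099 and 1154, against 7.04 at rank 6994 in YT list 2 and no peak in YT list 1. The other 10 lists all held a peak there, with folds from 4.64 to 39.7, so the YT value lay inside their range. In chr8:37658076-37662779 the folds were 13.3 and 12.7 in the TC lists and 6.94 in YT list 2, with 4.10 to 31.7 in the other 10. In chr5:398325-402237 they were 13.3 and 9.56 in the TC lists and 6.10 in YT list 2, and 9 of the other 10 lists held a peak. Neighbours within 100000 bp of each other formed 13 stretches among the 372, and the longest held 3 TC regions each, at chr12:54332559-54404720 and at chr16:685489-771489.

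The 3 best ranked of the 210 YT regions had a peak in all 14 lists. In chr12:57479736-57482538 the fold was 5.31 and 14.6 in the YT lists at ranks 1818 and 1884, against 8.23 and 6.18 in the TC lists at ranks 6376 and 6567. In chr5:72932410-72937278 it was 4.44 and 12.9 in the YT lists and 7.01 and 5.06 in the TC lists. In chr19:41815414-41817171 it was 6.39 and 15.3 in the YT lists and 5.26 and 8.19 in the TC lists. YT list 1 ranked these regions above both TC lists at folds that were below or between theirs. Neighbours within 100000 bp formed 5 stretches among the 210, each of 2 regions.

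The other 10 lists, which played no part in defining these classes, held both kinds of region at moderate shares. The 372 TC regions had a kept peak in 34.1% to 60.5% of cases per list, and the 210 YT regions in 32.4% to 48.1%. Over all 8305 regions the share was 51.0% to 65.7%, and over the regions in all 4 lists 83.4% to 94.5%. A TC region was kept in a median of 5 of the 10 lists and a YT region in a median of 4. No kept peak in any of the other 10 lists was found for 16 of the TC regions (4.30%) and 17 of the YT regions (8.10%), against 8.20% of all regions. The widest gap was in CAMTA1 list 1, labelled empty vector, with 55.4% of the TC regions (50.3 to 60.3) and 37.1% of the YT regions (30.9 to 43.9). In EV list 1, labelled TAZ4SA, the shares were 60.5% and 42.4%. The direction turned in TFE3 list 1, labelled YAP5SA, at 45.2% and 48.1%, and in TAZ4SA list 1, labelled TAZ_CAMTA1, at 34.1% and 40.0%. These differences between lists were not tested.

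**Figure D4:**
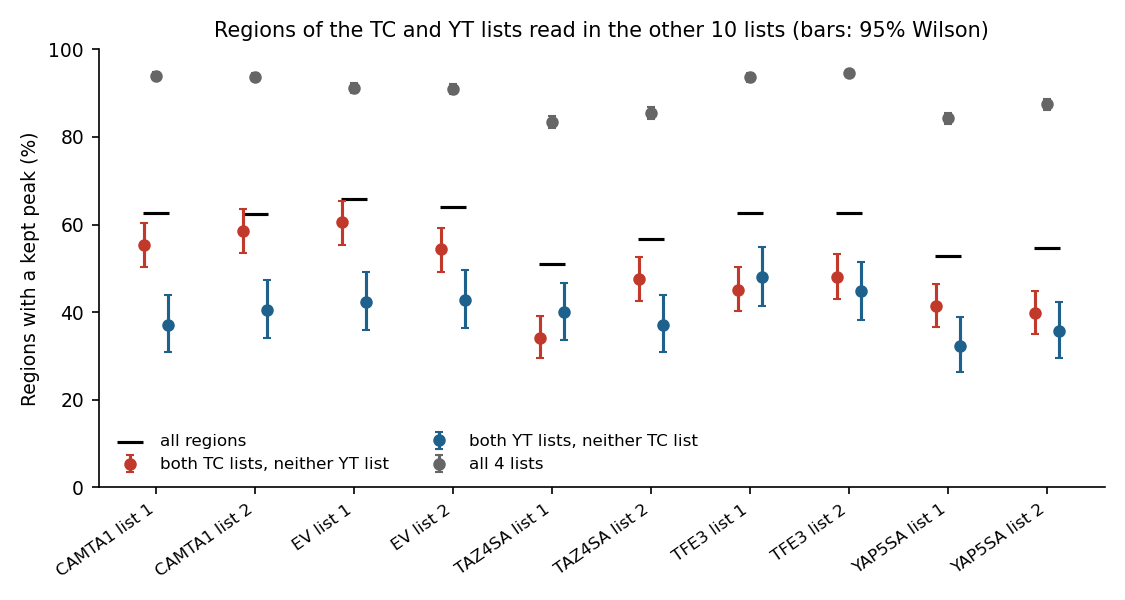
Share of regions with a kept peak (y axis, percent, with 95% Wilson intervals) in each of the other 10 lists, named by their peak names, for regions in both TC lists and neither YT list, both YT lists and neither TC list, and all 4 lists. The TC regions lie between 34.1% and 60.5%, the YT regions between 32.4% and 48.1%, and the regions in all 4 lists at 83.4% to 94.5%.

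With the shortest list set aside, the 3 longer lists were compared at 31280 peaks each, the length of TC list 2. The last peak had a −log10 p of 5.65 in TC list 1, 3.33 in TC list 2 and 5.64 in YT list 2. The Jaccard index was 0.451 for the TC pair, 0.584 for TC list 1 with YT list 2 and 0.463 for TC list 2 with YT list 2. TC list 1 covered 57.9 Mb, TC list 2 32.1 Mb and YT list 2 51.6 Mb, and as shares of the limit these lengths set the indices were 81.3%, 65.5% and 74.5%, which reverses their order. Of 19190 regions common to the TC lists, 17619 had a peak in YT list 2, or 91.8% (91.4 to 92.2). Of the 31280 peaks of YT list 2, 20114 lay in a common TC region, or 64.3% (63.8 to 64.8). With 1 TC list at a time, 73.2% of the peaks of TC list 1 and 77.3% of those of TC list 2 overlapped YT list 2, against 62.7% of TC list 1 overlapping TC list 2 and 81.7% of TC list 2 overlapping TC list 1. There is no replicate for the YT side in this comparison.

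These longer lists merged into 40332 regions, and 17051 of them, or 42.3%, were in all 3. TC list 1 alone held 6668, YT list 2 alone 5942 and TC list 2 alone 4262. TC list 1 and YT list 2 shared 3908 regions that TC list 2 lacked, more than the 1571 shared by the TC lists without YT list 2. After the peaks beyond the first 31280 were also read, 827 regions of both TC lists had no peak in any YT list, which is 2.05% of all regions, and 4403 regions of YT list 2 had none in either TC list, which is 10.9%. The regions of YT list 2 needed a peak in 1 list and those of TC in 2, as above, so the counts are not compared. They were narrow, with median widths of 888 and 477 bp against 2460 bp for the regions in all 3 lists, and their median ranks were 26120 in the weaker TC list and 26009 in YT list 2.

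Most of these regions had a peak elsewhere in the series. Of the 827 TC regions, 4 (0.484%) had no peak in the other 10 full lists and 24 had a peak in all 10. Of the 4403 YT regions, 321 (7.29%) had none and 33 had all. Over all 40332 regions 1261 (3.13%) had none. The EV lists, the longest of the series, held 83.0% and 77.7% of the YT regions, 94.9% and 91.1% of the TC regions and 93.2% and 90.5% of all regions. In the other 8 lists the shares ran from 9.54% to 42.9%, from 11.9% to 68.2% and from 37.7% to 71.7% in the same order. The best ranked TC region was chr12:56660187-56661012, with folds of 8.74 and 6.95 in the TC lists and a peak in 9 of the other 10 lists, from 3.36 to 17.3. It was followed by chr15:101389885-101391208, with folds of 8.38 and 7.05 and a peak in all of the other 10, and by chr12:123754477-123756156, with 7.74 and 6.50. The last 2 were chr2:161523194-161523650 and chr6:71122270-71122890, where the other 10 lists held 6 and 10 peaks.

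On the YT side the best ranked region without a TC peak was chr4:152462227-152463766. Its fold was 6.01 at rank 1757 in YT list 1 and 10.3 at rank 6174 in YT list 2, so both YT lists held it. Of the other 10 lists 4 had a peak there, with folds of 3.19 to 4.66. In chr15:98046828-98048380 YT list 2 had a fold of 9.71, and that was the single peak among 14 lists. YT list 1, the other YT library, had none there. In chr19:55678124-55678470 the fold in YT list 2 was 10.4, and 4 of the other 10 lists held a peak with folds from 6.61 to 16.05. The other two were chr10:124739845-124740434 and chr9:17018131-17018529, with folds of 9.15 and 7.28 in YT list 2 and peaks in 7 and 3 of the other 10 lists.

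Peak height was then compared over the 4186 regions with a peak in all 14 lists, so that every list gave a value. A region without a peak in YT list 1 could not enter. None of the 372 TC regions without a kept YT peak was therefore among them, while 195 of the 210 YT regions were, and the comparison of heights says nothing about those 372. Of the 838 regions of YT list 1 alone, 406 were among them. No region of TC list 1, TC list 2 or YT list 2 alone was. Across these regions the ranks by −log10 p correlated, as Spearman's rho, at 0.814 in the TC pair, 0.813 for TC list 1 with YT list 2, 0.784 for TC list 2 with YT list 2 and 0.635 in the YT pair. YT list 1 had 0.618 and 0.581 with the TC lists. These values are over regions within the same lists, and regions are not replicates. The spread between the lists of a pair in normalised log2 fold was 0.41 (SD) for YT and 0.35 for TC, and 0.30 to 0.40 for the other 5 pairs, so the YT pair was the most variable of the 7.

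None of these 4186 regions, which leave out the 372, passed an adjusted p of 0.05 for a difference in height between TC and YT lists in limma, fitted over all 14 lists on quantile-normalised log2 fold enrichment, which is 0% of 4186 in either direction. The smallest adjusted p was 0.237. At an unadjusted p of 0.05, 155 regions were higher in TC, or 3.70%, and 170 higher in YT, or 4.06%. Without YT list 1 these were 148 and 101, without YT list 2 300 and 224, and with median centring in place of quantiles 83 and 140, so that neither direction led throughout. With no scaling 70 were higher in TC and 0 in YT at that unadjusted p. Both TC lists lay above both YT lists in 705 regions, or 16.8%, and below them in 759, or 18.1%. Regions could enter through YT list 1 alone but not through the TC lists alone. The 2 directions thus had unequal chances, and the order of their counts is not read. The log2 differences ran from −1.37 to 1.49 with a median standard error of 0.34, and 66 regions differed by more than 1. On simulated data of this size, with an SD of 0.33 for every region and list, limma called 31% of 200 regions changed by a log2 of 1, 75% at 1.5 and 85% at 2. The YT pair had a wider spread, at an SD of 0.41, so these rates may be too high for the TC and YT lists. Changes of about 1 would therefore mostly be missed with 2 lists against 2. The p-values measure the spread between these libraries.

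The regions with the smallest p, which did not pass, are given for their values. In chr7:27148319-27163964, a stretch of 15646 bp that ends 5021 bp before the best ranked TC region named above, the fold was 19.2 and 13.6 in the TC lists and 3.31 and 9.86 in the YT lists. On the normalised log2 scale the TC lists stood at 4.31 and 4.09 and the YT lists at 2.63 and 3.15, with the other 10 lists between 3.54 and 4.79. The YT lists thus lay below all of the other 10 there and the TC lists inside their range, with a TC minus YT difference of 1.31 ± 0.33 (SE) and an adjusted p of 0.237 in limma. In chr8:48920418-48921903 the TC lists stood at 4.35 and 3.51 and the YT lists at 1.96 and 2.92, a difference of 1.49 ± 0.36 (SE). In chr9:131449780-131453931 they stood at 3.90 and 4.08 against 2.71 and 2.54, and the difference was 1.37 ± 0.36 (SE).

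Higher in the YT lists was first chr3:17781341-17785394. Its normalised log2 fold was 2.72 and 3.0 in the TC lists, below all of the other 10 lists at 3.56 to 4.56, and 4.22 and 4.23 in the YT lists, inside that range. The difference was −1.36 ± 0.32 (SE). In chr17:18160465-18162359 the TC lists stood at 2.15 and 2.74 and the YT lists at 4.10 and 3.52, where the other 10 ran from 2.78 to 4.35. In chr9:90326262-90331717 the TC lists stood at 2.36 and 2.28 and the YT lists at 3.74 and 3.45, above the 2.20 to 3.24 of the other 10. Their differences were −1.37 ± 0.34 (SE) and −1.27 ± 0.32 (SE). Neither TC list kept a peak in these 2 regions, which stood at ranks 10892 and 8403 and at ranks 9884 and 19164. Both regions entered the comparison through the YT lists alone, where they are high, so they are no support for a difference. With no scaling the differences of the 3 regions higher in YT were −0.80, −0.82 and −0.74. As deposited, the fold in the last was 5.50 and 4.09 in the TC lists and 5.22 and 11.9 in the YT lists, so the pairs overlapped there before normalisation. On the normalised scale the pairs did not overlap in these 6 regions, which were chosen for their small p, and the adjusted p in limma was 0.237 for all of them.

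**Figure D5:**
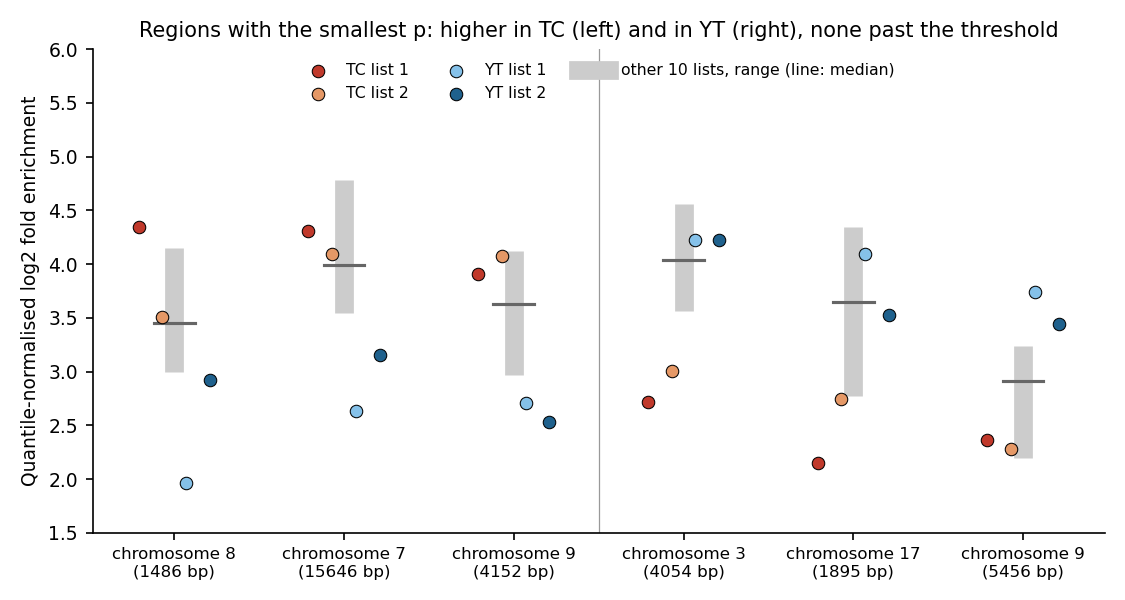
Quantile-normalised log2 fold enrichment (y axis) of the 6 regions with the smallest p in limma, 3 higher in TC and 3 higher in YT, with 1 point per list and the range and median of the other 10 lists in grey. On this scale TC and YT points do not overlap in any region, and no difference passed the threshold (adjusted p = 0.237 in limma).

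When each list was left out in turn, limma tested 4186 regions and made calls only without YT list 2. The YT side is then YT list 1 alone, which is assumed to vary like the other groups, and limma called 15 regions higher in TC and 5 higher in YT, and the smallest adjusted p was 0.0050. The first of these was chr20:31052780-31068871, with folds of 12.7 and 15.4 in the TC lists, 2.56 in YT list 1 and 11.4 in YT list 2. There the TC values lay close to YT list 2 and far from YT list 1. Of the 6 regions named above, chr8:48920418-48921903 and chr17:18160465-18162359 were among those called. In the longer lists without YT list 1, where YT list 2 stands alone under the same assumption, limma called 0 of 11325 regions, with a smallest adjusted p of 0.936, and at an unadjusted p of 0.05 it had 314 higher in TC and 256 higher in YT.

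Differences by breadth were small. In the 1396 narrowest of the 4186 regions, 274 to 2470 bp wide, the median TC minus YT difference was −0.067 on the log2 scale, 12.6% of regions had both TC lists above and 20.1% both below. In the 1395 of middle width the median was 0.043, with 18.5% above and 16.5% below. In the 1395 widest, 4336 to 38174 bp, the median was 0.028, with 19.4% above and 17.8% below. Against YT list 1 the median of the narrowest regions was −0.16, and against YT list 2 it was −0.0081. The 4186 hold 406 regions that were kept in YT list 1 alone, a class with a median width of 362.5 bp. These entered through YT list 1, so the lower TC values among narrow regions follow in part from how regions were chosen and are not read.

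Under the labels the comparison is of other libraries, the lists labelled TAZ_CAMTA1, which carry TAZ4SA, against those labelled YAP_TFE3, which carry YAP5SA. With these lists the mean Jaccard index within minus between was −0.014, 80.1% of the TAZ_CAMTA1 regions overlapped a YAP_TFE3 region and 70.7% the reverse. There were 237 regions in both TAZ_CAMTA1 lists alone and 330 in both YAP_TFE3 lists alone, 2.77% and 3.86% of 8549. limma called 0 of 3663 regions, with a smallest adjusted p of 0.541, and at an unadjusted p of 0.05 it had 131 and 127 regions in the 2 directions. The log2 differences in median width, Mb covered and median fold were −0.41, −0.42 and −0.21, opposite in sign to those of the TC and YT lists.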

How the data were processed

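H3K27ac ChIP-seq of SW872 cells was read from 14 deposited peak lists, 2 per construct; the 14 input libraries were not used here. Per the methods and the labels, the authors aligned reads to GRCh37 with BWA, dropped greylist regions and reads that map to several places, and ran MACS2 for narrow peaks. For each peak the deposited lists give the fold at its summit, which is a ratio to local background, the −log10 of its p-value, the −log10 of its q-value and a score, as the authors' peak caller wrote them; the score was not analysed. The methods state pooled replicates and a q-value limit of 0.1, while each list here is of 1 library and the lowest −log10 q over the 14 lists was 1.30.

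Peaks were ranked by −log10 p, then fold, and overlapped at 1 bp or more; merged kept peaks made the regions. Height was tested with limma 3.58.1 in R 4.3.3 on quantile-normalised log2 fold (largest peak per region), 14 lists in 7 pairs, with Benjamini-Hochberg adjustment. Overlaps were computed in Python 3.11.15 with pandas 2.3.3, numpy 2.4.6 and scipy 1.17.1, and plots were drawn in matplotlib 3.10.9. On simulated data, quantile normalisation understated large differences: a log2 of 2 came out at a median of 1.41, against 1.99 with median centring.

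Regions were named by rule: the 3 smallest p per direction where limma called none, the 5 best ranked (by their weakest list) in all 4 lists, the 3 best ranked per construct without a kept peak of the other, and the 5 best ranked per side in the longer lists. The region given first among the calls without YT list 2 and the runs of neighbours were chosen after their values were seen. The comparison, lists and tests were chosen with earlier results of these data known. Added after the data were seen were the Jaccard index without each list and as a share of its limit, limma with list weights, limma on the longer lists, per-list values under the labels, and full lists without the shortest. Start-site shares, gene lists, motifs and sequences need an annotation or genome of GRCh37. The reference used here is of a different build and no coordinates were moved between builds, so these were not analysed here.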

Additional observations from a re-analysis of the deposited data

How the results depend on the processing

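With 2000 peaks per list, 64.0% of TC and 76.3% of YT regions were shared, and 140 and 99 of 3274 regions (4.28% and 3.02%) were in both lists of TC or YT alone. With full lists these values were 23.1%, 98.9%, 1350 and 11 of 62216 (2.17% and 0.0177%), and the differences in width, Mb covered and fold were 0.27, 1.64 and, turned in sign, −0.048. Ranked by fold, the shares were 60.7% and 73.3%. With 500 bp to each side of summits they were 59.9% and 76.0%, and the Jaccard difference turned to 0.0083, as it did, to 0.0763, with the index as a share of its limit. With an overlap of 50% or more, the TC share was 59.5%, and 81.6% of longer TC regions were shared. Of 8305 regions 426 (5.13%) were then in TC alone and 9 (0.108%) in YT alone. Under the labels TAZ_CAMTA1 and YAP_TFE3 the shares were 80.1% and 70.7%, the counts 237 and 330, and the differences in width, Mb covered and fold turned to −0.41, −0.42 and −0.21. Restricting overlaps to chromosomes 1 to 22 and X moved no overlap value beyond the spread.

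Leaving out each list in turn gave −0.190 to 0.272 for the Jaccard difference (0.272 without YT list 2), 53.6% to 87.3% and 66.4% to 88.8% for the shares, 561 to 1462 and 390 to 1097 for the counts in TC or YT alone (561 and 713 without YT list 1, where YT regions need 1 list and TC regions 2), 73.2% to 77.3% and 63.0% to 77.7% for the longer lists, −0.22 to 2.19 for width, −0.22 to 2.15 for Mb and −0.25 to 1.28 for fold. The negative ends of the last 3, −0.220, −0.221 and −0.251, were without YT list 1. With any 1 list left out, limma tested 4186 regions. limma called 0 to 15 regions higher in TC and 0 to 5 higher in YT. The calls came only without YT list 2, with 1 YT list assumed to vary like the other groups; in the 13 other of 14 alternatives limma called 0, with smallest adjusted p from 0.0593 (−log10 p in place of fold) to 0.936. Unadjusted, 70 regions were higher in TC and 0 in YT with no scaling.

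The replicate number in the labels did not pair the lists: the deviations of same-numbered lists correlated at 0.024, and the peak names number the YT lists 2 and 3. With the replicate block limma called 0 regions (smallest adjusted p 0.231), and the differences per list stayed at 0.99, 0.97 and 0.51 (exact permutation p of 1, smallest possible 0.5). The 6 regions with the smallest p kept their direction in the 12 alternatives that gave them a value, but with no scaling the differences of the 3 higher in YT shrank to −0.80 (chr3:17781341-17785394), −0.82 (chr17:18160465-18162359) and −0.74 (chr9:90326262-90331717). The start-site alternative was not run, since start sites were not analysed.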
